A study of Mus musculus with 12 samples.

Results

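The tumour necrosis factor (TNF) superfamily was followed through 10 genes in mouse bone marrow-derived macrophages. They were 6 ligands (Tnf, Tnfsf9, Tnfsf10, Tnfsf12, Tnfsf13 and Tnfsf13b), 3 receptors (Tnfrsf1a, Tnfrsf1b and Fas) and 1 adaptor of receptor signalling (Traf1). They were chosen by gene symbol, without a threshold on their values, but with earlier results of these data known. All 10 were among the 12441 genes of the expression tables. The macrophages carried either COQ6 D316Y in the homozygous state or the wild-type (WT) protein. COQ6 is a mitochondrial monooxygenase of coenzyme Q synthesis. Marrow of both genotypes was cultured for 6 days with 10% conditioned medium of L929 cells, which secrete the growth factor that macrophages need. They were then either exposed for 24 h to 100 ng/mL lipopolysaccharide (LPS), a bacterial lipid sensed by Toll-like receptor 4, or left unstimulated. This gave 4 groups of 3 libraries: D316Y with LPS, D316Y unstimulated, WT with LPS and WT unstimulated. The labels used here give no strain, age or number of mice, and do not say whether replicates came from separate animals, so p-values measure the spread between these samples, which may be technical.

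Ligands of this family are trimers, mostly held at the cell surface until they are cut free, and they cluster their receptors on the target cell. Receptors with a death domain, such as the type 1 TNF receptor and Fas, can start apoptosis. TRAF adaptors, which serve receptors of this family, lead to NF-kappaB and MAP kinase signalling. Macrophages are a main source of TNF after LPS, and they also present ligands that act on T cells and B cells.

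The start regions of Tnf, the founding ligand, and of the 4 genes with the largest rise with LPS in D316Y (Traf1, Fas, Tnfsf10 and Tnfrsf1b) are shown first. Each is 250 bases before to 50 bases after the annotated start, in the direction of transcription, from RefSeq on GRCm38.p6. Capitals mark every match to the 5 motifs searched on both strands. Windows were found for 8 of the 10 genes, with 2 for Tnfsf13b; Tnfsf9 and Tnfsf12 are named only.
Tnf, chr17:35201958-35202257, minus strand: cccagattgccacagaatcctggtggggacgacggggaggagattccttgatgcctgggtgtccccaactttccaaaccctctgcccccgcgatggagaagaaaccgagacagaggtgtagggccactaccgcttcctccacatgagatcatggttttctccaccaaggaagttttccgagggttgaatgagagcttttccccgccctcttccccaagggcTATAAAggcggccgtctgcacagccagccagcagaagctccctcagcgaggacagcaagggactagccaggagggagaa
Tnfsf10, chr3:27316827-27317126, plus strand: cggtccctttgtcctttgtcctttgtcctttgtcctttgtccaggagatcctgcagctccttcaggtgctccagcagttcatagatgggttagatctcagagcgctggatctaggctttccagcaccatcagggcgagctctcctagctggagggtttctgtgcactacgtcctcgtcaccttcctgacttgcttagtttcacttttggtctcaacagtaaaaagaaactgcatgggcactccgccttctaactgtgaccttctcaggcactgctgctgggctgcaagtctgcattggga
Tnfrsf1b, chr4:145246821-145247120, minus strand: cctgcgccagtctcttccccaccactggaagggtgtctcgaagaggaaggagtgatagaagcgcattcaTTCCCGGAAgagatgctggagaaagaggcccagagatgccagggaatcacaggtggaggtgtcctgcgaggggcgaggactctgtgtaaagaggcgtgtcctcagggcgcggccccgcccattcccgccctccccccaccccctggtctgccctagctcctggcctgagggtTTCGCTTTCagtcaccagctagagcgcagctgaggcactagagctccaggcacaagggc
Fas, chr19:34290409-34290708, plus strand: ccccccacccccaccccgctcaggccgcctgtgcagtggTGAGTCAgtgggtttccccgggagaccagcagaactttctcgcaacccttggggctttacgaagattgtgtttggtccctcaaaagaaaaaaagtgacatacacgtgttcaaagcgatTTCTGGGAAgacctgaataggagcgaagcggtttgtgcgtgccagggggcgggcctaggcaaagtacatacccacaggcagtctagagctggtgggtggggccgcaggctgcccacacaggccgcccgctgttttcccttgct
Traf1, chr2:34961723-34962022, minus strand: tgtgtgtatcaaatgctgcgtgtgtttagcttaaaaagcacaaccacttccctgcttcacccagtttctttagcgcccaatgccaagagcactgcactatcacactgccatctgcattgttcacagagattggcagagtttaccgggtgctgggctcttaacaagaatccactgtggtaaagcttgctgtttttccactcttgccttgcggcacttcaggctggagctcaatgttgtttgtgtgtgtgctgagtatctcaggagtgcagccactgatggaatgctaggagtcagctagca

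In the Tnf window the capitals are a TATA box (TATAAA) at positions -29 to -24 from the start, where 1 is the first transcribed base. The Fas window holds an AP-1 site (TGANTCA) at -211 to -205 and a gamma-activated site (TTCNNNGAA) at -93 to -85. The Tnfrsf1b window holds a gamma-activated site at -181 to -173 and the core of an interferon-stimulated response element (GAAANNGAA, read here on the other strand) at -9 to -1. Neither the Tnfsf10 nor the Traf1 window holds any of the 5 motifs. Of the windows not printed, that of Tnfrsf1a has a gamma-activated site, that of Tnfsf13 an AP-1 site, and those of Tnfsf13b an AP-1 site and, in 1 of the 2, the interferon-stimulated core. The kappaB consensus was found in none of the 8 genes. Over all 32851 RefSeq windows the shares with a match were 8.46% for the kappaB consensus, 8.56% for the interferon-stimulated core, 7.81% for the AP-1 site, 8.30% for the gamma-activated site and 13.6% for the TATA box. These matches describe letters in short windows and say nothing about which factors bind there.

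The values are log2 counts per M reads (log2 CPM), scaled by the authors. Reads per library, recovered from those values, came to between 32.8 and 47.2 M. All 8 macrophage markers examined were measured, and their summed level was 54936 to 63788 CPM in LPS-treated D316Y, 32532 to 35483 CPM in unstimulated D316Y, 64664 to 70806 CPM in LPS-treated WT and 35130 to 39347 CPM in unstimulated WT. Lyz2 made up most of each sum, at 46122 to 54514 CPM with LPS and 26637 to 28745 CPM without it in D316Y. In WT it was at 53491 to 62320 CPM and 28074 to 29396 CPM. Cd68 was lower with LPS, at 597 to 768 CPM against 1467 to 2510 CPM in D316Y. In WT Cd68 was at 740 to 786 CPM against 1622 to 2751 CPM. Adgre1, Fcgr1, Itgam and Cd14 were higher with LPS in both genotypes, while Csf1r overlapped in both and Mertk in WT. All marker levels here are on the authors' scaling. Directions of markers with LPS can depend on that scaling, and no other was tried for them. Of 8 T cell markers 3 were measured, and their sum was 3.41 to 7.06 CPM in LPS-treated D316Y, 72.2 to 76.8 CPM in unstimulated D316Y, 4.54 to 7.63 CPM in LPS-treated WT and 69.5 to 111 CPM in unstimulated WT. Of 6 B cell markers 2 were measured, with sums of 7.80 to 9.91 CPM, 203 to 264 CPM, 9.91 to 11.0 CPM and 248 to 328 CPM in the same 4 groups. Cd28 and Ighm made up nearly all of the unstimulated sums, while Lck stayed at or under 1.23 CPM and Cd79b at or under 9.20 CPM in every library. Cd79b was higher with LPS, at 6.24 to 9.11 CPM against 3.39 to 5.61 CPM in D316Y. In WT it was at 7.19 to 9.20 CPM against 4.15 to 5.41 CPM. Lck was higher with LPS in WT, at 0.947 to 1.23 CPM against 0.421 to 0.717 CPM, and overlapped in D316Y. Cd247 was higher with LPS in both genotypes, but at or under 0.583 CPM in every library. Neutrophil markers (5 of 10 measured) summed to 30.1 to 55.2 CPM with LPS and 6.97 to 29.9 CPM without it. S100a8 carried most of the LPS sums, at 24.0 to 44.6 CPM. Camp was also higher with LPS in both genotypes, at 3.02 to 6.15 CPM against 0.0717 to 0.369 CPM without it. Ngp went the other way, at 0.450 to 1.21 CPM with LPS and 1.38 to 3.48 CPM without it. Osteoclast markers (4 of 6 measured) summed to 119 to 168 CPM in LPS-treated D316Y, 51.6 to 69.5 CPM in unstimulated D316Y, 124 to 159 CPM in LPS-treated WT and 59.1 to 60.5 CPM in unstimulated WT. Acp5 made up most of the LPS sums, at 87.0 to 133 CPM, while Ocstamp was at or under 0.218 CPM with LPS and at 2.08 to 4.89 CPM without it. Dendritic cell markers (3 of 6 measured) summed to at most 3.84 CPM in any library, and no NK cell, mast cell or basophil marker was among the measured genes. The part of these other cell types in the LPS differences was not tested. In these bulk samples fewer cells of a type and less RNA per cell cannot be told apart.

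Levels were compared between genes as reads per kb of exon and M of effective library size, called RPKM here. The effective size follows the authors' scaling and not the reads of a library, so levels of 1 gene in different groups depend on it. Tnfrsf1b, the type 2 TNF receptor of immune cells, was the highest of the 10 genes in each group, with 229 ± 10.3 in LPS-treated D316Y, 77.6 ± 4.36 in unstimulated D316Y, 201 ± 51.0 in LPS-treated WT and 107 ± 24.6 in unstimulated WT (SD, n = 3 each). Tnfrsf1a, the widely expressed type 1 receptor, was next in each group, at 57.5 ± 5.59, 55.2 ± 9.90, 64.3 ± 8.81 and 67.4 ± 17.2 in the same order of groups. Tnfsf13b was the lowest in each group, at 0.429 ± 0.0683, 0.228 ± 0.0124, 0.415 ± 0.0497 and 0.327 ± 0.0257. With LPS the order below the 2 TNF receptors was Fas, Tnfsf9, Tnf, Traf1, Tnfsf12, Tnfsf10, Tnfsf13 and Tnfsf13b in both genotypes. There the libraries of neighbours in the order overlapped only between Tnf and Traf1 and between Tnfsf12 and Tnfsf10, again in both genotypes. Unstimulated, Tnfsf12 was the highest ligand, at 12.5 ± 1.02 in D316Y and 10.7 ± 1.46 in WT, followed by Tnfsf9, Tnf, Fas and Tnfsf13. The libraries of Tnfsf9 and Tnf overlapped in both genotypes, and those of Tnfsf12 and Tnfsf9 and of Fas and Tnfsf13 in WT. Traf1 then stood above Tnfsf10 in D316Y, with overlapping libraries, and below it in WT without overlap. The places of Tnfsf12 and Tnfsf13 in these orders are uncertain. A read-through gene shares 48.3% of the exon bases of Tnfsf12 and 60.0% of those of Tnfsf13.

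**Figure D1:**
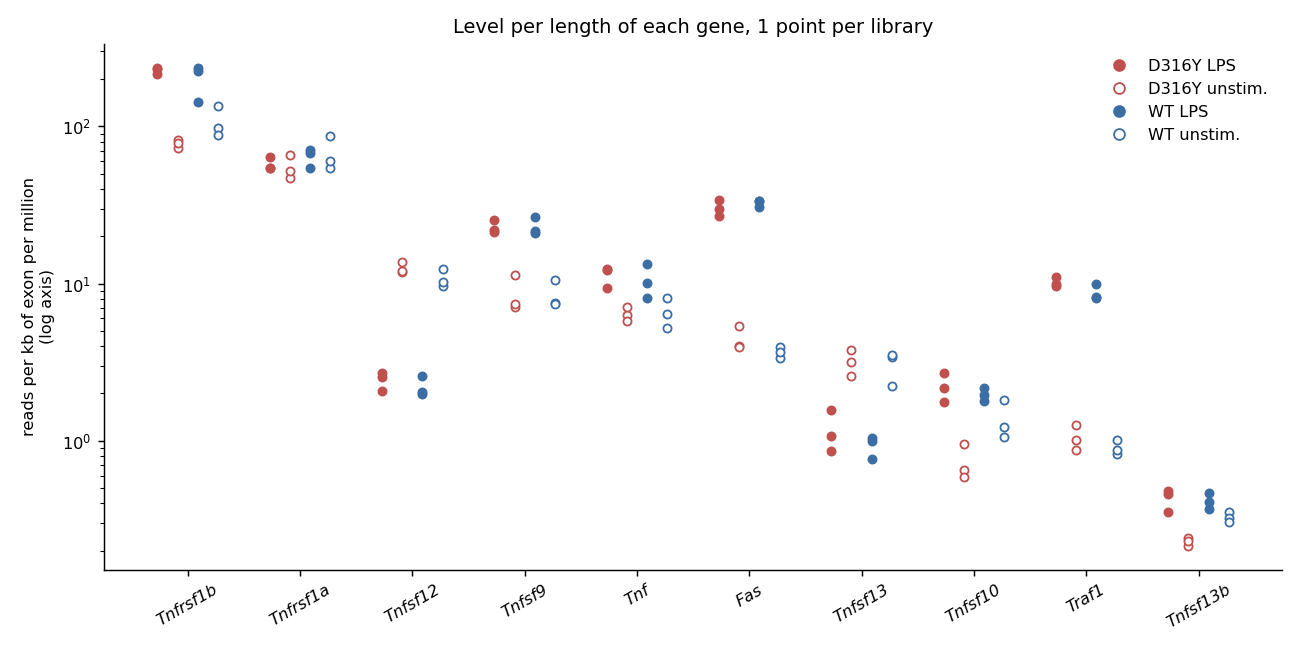
Reads per kb of exon and M of effective library size (log axis) for each gene, with 1 point per library. Filled points are LPS and open points unstimulated libraries, red D316Y and blue WT. Tnfrsf1b and Tnfrsf1a lie above the other 8 genes in every library, and Tnfsf13b lies at the bottom.

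Tnf itself, the founding ligand of the family (chr17:35199381-35202007, minus strand, 4 exon blocks; positions of genes are from GENCODE M21 on GRCm38, matched by identifier), was 1.77-fold higher with LPS in D316Y and 1.60-fold higher in WT. It stood at 4.33, 4.35 and 3.95 log2 CPM in D316Y replicates 1, 2 and 3 with LPS, against 3.38, 3.24 and 3.54 log2 CPM unstimulated. In WT it stood at 3.73, 4.46 and 4.06 log2 CPM with LPS, against 3.10, 3.73 and 3.39 log2 CPM unstimulated. All LPS libraries lay above all unstimulated libraries of their genotype, but in WT the lowest LPS and the highest unstimulated library were almost equal, both at 3.73 log2 CPM. The log2 difference was 0.82 in D316Y (SE 0.21, limma adjusted p 0.00649) and 0.68 in WT (SE 0.21, adjusted p 0.0206). The WT call stood near the threshold of 0.05. Without WT LPS replicate 2 or 3, or unstimulated replicate 1 or 3, the limma adjusted p was 0.0978, 0.0504, 0.0760 and 0.0540. The log2 differences were then 0.49, 0.69, 0.52 and 0.67. With the replicate number as a block the adjusted p was 0.0126, and over all alternatives it ran from 0.00793 to 0.496.

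Among the other ligands, Tnfsf9, which costimulates T cells through 4-1BB (chr17:57105325-57107757, plus strand), rose by like amounts in both genotypes. It was at 5.03, 4.83 and 4.79 log2 CPM in D316Y with LPS, against 3.87, 3.19 and 3.26 unstimulated, and at 5.09, 4.80 and 4.77 log2 CPM in WT with LPS, against 3.28, 3.27 and 3.76 unstimulated. The log2 difference was 1.44 in D316Y (SE 0.19, limma adjusted p 5.42e-05) and 1.45 in WT (SE 0.19, adjusted p 5.91e-05). Of its 1290 exon bases 192 overlap the antisense gene Gm11110, and the strand setting of the counting is not given in the sources used here, so reads of the 2 genes cannot be told apart there.

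Tnfsf10, or TRAIL, a ligand of death receptors (chr3:27317028-27342427, plus strand), was 3.04-fold higher with LPS in D316Y. Its values were 3.51, 3.84 and 3.21 log2 CPM in D316Y with LPS, against 1.77, 1.63 and 2.34 unstimulated. In WT they were 3.23, 3.37 and 3.51 log2 CPM with LPS, against 3.26, 2.69 and 2.48 unstimulated. The D316Y groups did not overlap, whereas WT unstimulated replicate 1 lay within the LPS range. LPS minus unstimulated came to 1.61 in D316Y (SE 0.24, limma adjusted p 0.000131) and 0.56 in WT (SE 0.24, adjusted p 0.0863), which did not pass. Without WT unstimulated replicate 1 the WT difference was 0.78 and passed (adjusted p 0.0196, over all alternatives 0.0140 to 0.864). That library also had the lowest mitochondrial share of reads, 0.449%, against 2.15% and 1.97% in the other unstimulated WT libraries; its part in the result was not tested.

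Tnfsf13b, or BAFF, a survival factor of B cells (chr8:10006467-10039072, plus strand), rested on 77 to 136 reads per library. It was at 1.72, 1.28 and 1.67 log2 CPM in D316Y with LPS, against 0.57, 0.73 and 0.67 unstimulated, and at 1.35, 1.69 and 1.50 log2 CPM in WT with LPS, against 1.29, 1.15 and 1.07 unstimulated. In both genotypes the LPS libraries were all above the unstimulated ones. On the log2 scale the LPS difference was 0.90 in D316Y (SE 0.21, limma adjusted p 0.00369), which passed, and 0.34 in WT (SE 0.21, adjusted p 0.227), which did not.

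Tnfsf12, or TWEAK, the ligand of Tnfrsf12a (chr11:69686250-69695849, minus strand), and Tnfsf13, or APRIL, which like BAFF acts on B cells and plasma cells (chr11:69682846-69685784, minus strand), were the 2 genes that fell with LPS. Tnfsf12 was at 2.03, 1.95 and 1.67 log2 CPM in D316Y with LPS, against 4.37, 4.16 and 4.18 unstimulated, and at 1.64, 1.98 and 1.58 log2 CPM in WT with LPS, against 3.87, 3.95 and 4.23 unstimulated. It was 5.11-fold lower in D316Y (log2 difference -2.35, SE 0.17, limma adjusted p 1.97e-07) and 4.87-fold lower in WT (-2.28, SE 0.17, adjusted p 2.75e-07). Tnfsf13 was at 1.38, 0.50 and 0.82 log2 CPM in D316Y with LPS, against 2.09, 2.39 and 2.64 unstimulated, and at 0.71, 0.78 and 0.35 log2 CPM in WT with LPS, against 1.88, 2.49 and 2.53 unstimulated. Its log2 difference was -1.47 in D316Y (SE 0.27, adjusted p 0.000717) and -1.68 in WT (SE 0.27, adjusted p 0.000273), and the groups overlapped in neither genotype. Both values are uncertain as gene levels. The read-through gene Tnfsfm13, which was not analysed here, covers 48.3% of the exon bases of Tnfsf12 and 60.0% of those of Tnfsf13, and Tnfsf13 also overlaps an antisense gene, so the counting could split or drop their reads.

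**Figure D2:**
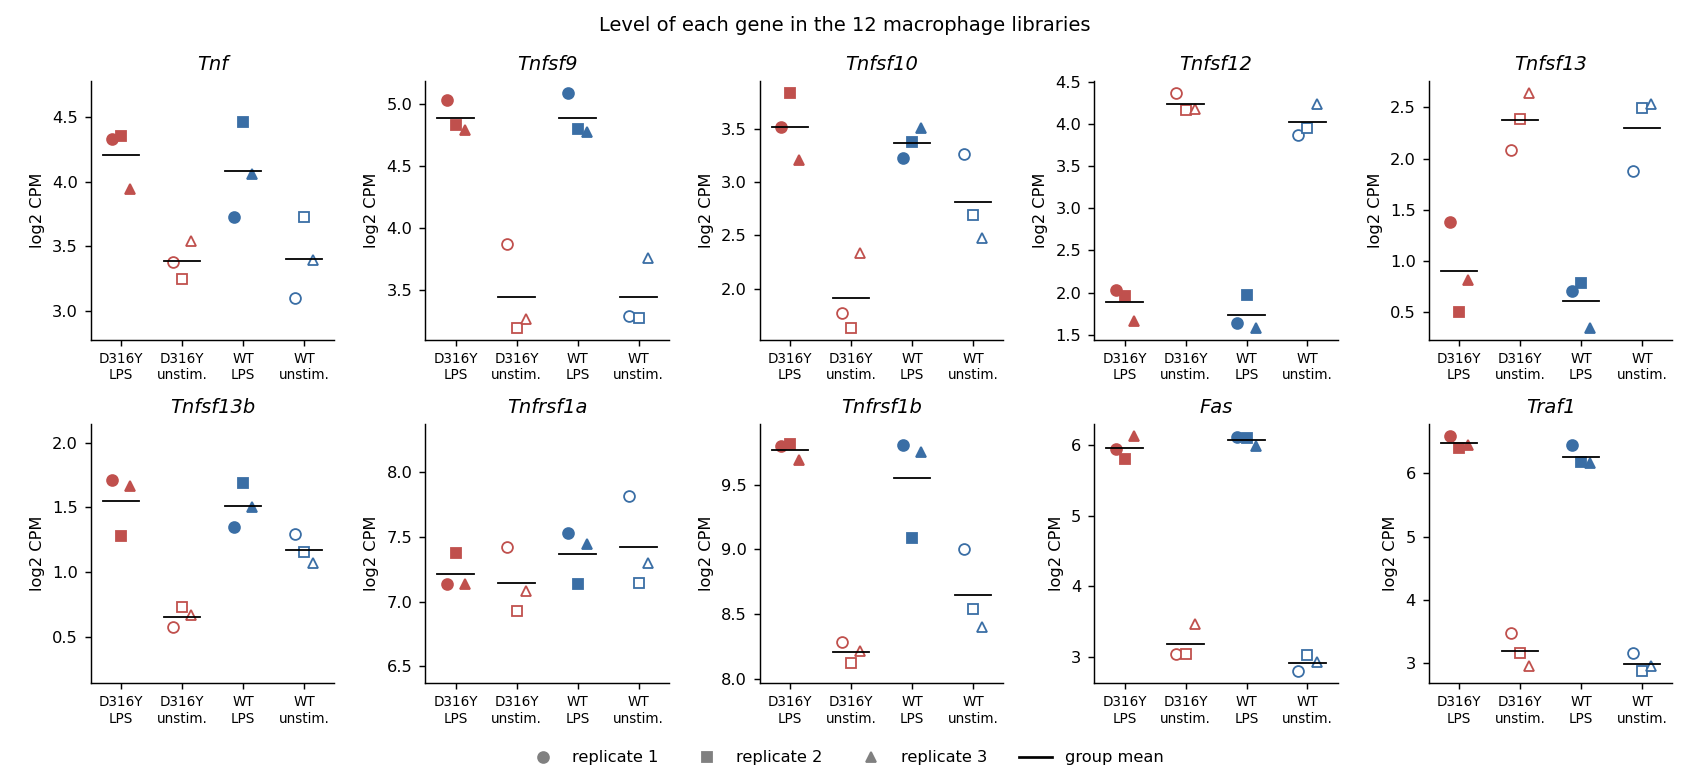
Log2 CPM of each gene in the 12 libraries, by group; filled symbols are LPS and open symbols unstimulated libraries, the shape gives the replicate number and the bar the group mean, and each panel has its own scale. Traf1 and Fas lie over 2 log2 units higher with LPS, Tnfsf12 and Tnfsf13 lie lower with LPS in both genotypes, and the Tnfrsf1a groups overlap.

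The receptors differed in their response. Fas, the death receptor of the Fas ligand (chr19:34290666-34327772, plus strand), was 6.87-fold higher with LPS in D316Y and 8.93-fold higher in WT. It stood at 5.95, 5.81 and 6.13 log2 CPM in D316Y with LPS, against 3.04, 3.03 and 3.47 unstimulated, and at 6.12, 6.10 and 5.99 log2 CPM in WT with LPS, against 2.80, 3.02 and 2.92 unstimulated. Every LPS library was over 2 log2 units above every unstimulated one. The log2 difference was 2.78 in D316Y (SE 0.15, limma adjusted p 1.02e-08) and 3.16 in WT (SE 0.15, adjusted p 3.15e-09).

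Tnfrsf1b (chr4:145213463-145246870, minus strand) rose with LPS in both genotypes. Its values were 9.80, 9.81 and 9.69 log2 CPM in D316Y with LPS, against 8.29, 8.12 and 8.22 unstimulated. In WT they were 9.81, 9.09 and 9.75 log2 CPM with LPS, against 9.01, 8.54 and 8.40 unstimulated. WT LPS replicate 2 was low among its group and close to the highest unstimulated WT library, though the groups did not overlap. The log2 change with LPS was 1.56 in D316Y (SE 0.20, limma adjusted p 4.36e-05) and 0.90 in WT (SE 0.20, adjusted p 0.00344).

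Tnfrsf1a (chr6:125349362-125362484, plus strand) passed in neither genotype. It was at 7.13, 7.37 and 7.14 log2 CPM in D316Y with LPS, against 7.42, 6.93 and 7.08 unstimulated, and at 7.53, 7.14 and 7.45 log2 CPM in WT with LPS, against 7.82, 7.14 and 7.30 unstimulated. The groups overlapped in both genotypes. On the log2 scale LPS minus unstimulated was 0.07 in D316Y (95% interval -0.34 to 0.48, limma adjusted p 0.806) and -0.05 in WT (-0.46 to 0.36, adjusted p 0.871), which leaves room for changes of that size in either direction.

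Traf1, an adaptor that binds the type 2 TNF receptor together with TRAF2 (chr2:34941750-34961772, minus strand), had the largest LPS difference of the 10 genes in both genotypes. It stood at 6.59, 6.41 and 6.45 log2 CPM in D316Y with LPS, against 3.47, 3.15 and 2.95 unstimulated, and at 6.45, 6.18 and 6.16 log2 CPM in WT with LPS, against 3.15, 2.87 and 2.94 unstimulated. It was 9.79-fold higher in D316Y (log2 difference 3.29, SE 0.15, limma adjusted p 2.93e-09) and 9.69-fold higher in WT (3.28, SE 0.15, adjusted p 2.93e-09).

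Across the 10 genes, LPS called 7 higher and 2 lower in D316Y, and 5 higher and 2 lower in WT. Among the 11918 genes tested, 19.2% were called higher and 18.9% lower in D316Y, and 17.8% higher and 18.7% lower in WT. The median log2 difference of the 10 genes was 1.17 in D316Y, against -0.03 for all genes tested, and 0.62 in WT, against -0.01. The LPS directions depend in part on the scaling. The authors' scaling sets the size of each library against the others, and on plain CPM, a scaling chosen after the data were seen, the median of all genes was -0.55 in D316Y and -0.52 in WT. On that scale 1058 genes were called higher and 5971 lower in D316Y, and 926 higher and 5998 lower in WT, against 2294 and 2249 in D316Y and 2116 and 2231 in WT on the authors' scale. Traf1, Fas, Tnfsf9, Tnfsf12 and Tnfsf13 kept their direction and passed in both genotypes, as did Tnfrsf1b and Tnfsf10 in D316Y. Tnf no longer passed on plain CPM, at 0.31 in D316Y (limma adjusted p 0.206) and 0.17 in WT (0.496), nor did Tnfsf13b in D316Y (0.38, adjusted p 0.120) or Tnfrsf1b in WT (0.39, 0.122). Tnfrsf1a, by contrast, was lower with LPS in WT (-0.56, adjusted p 0.0195) and at -0.45 in D316Y (adjusted p 0.0502). Measured from the median of all genes on plain CPM, Tnf was 0.86 higher in D316Y and 0.69 higher in WT, and Tnfrsf1a 0.11 higher in D316Y and 0.03 lower in WT.

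**Figure D3:**
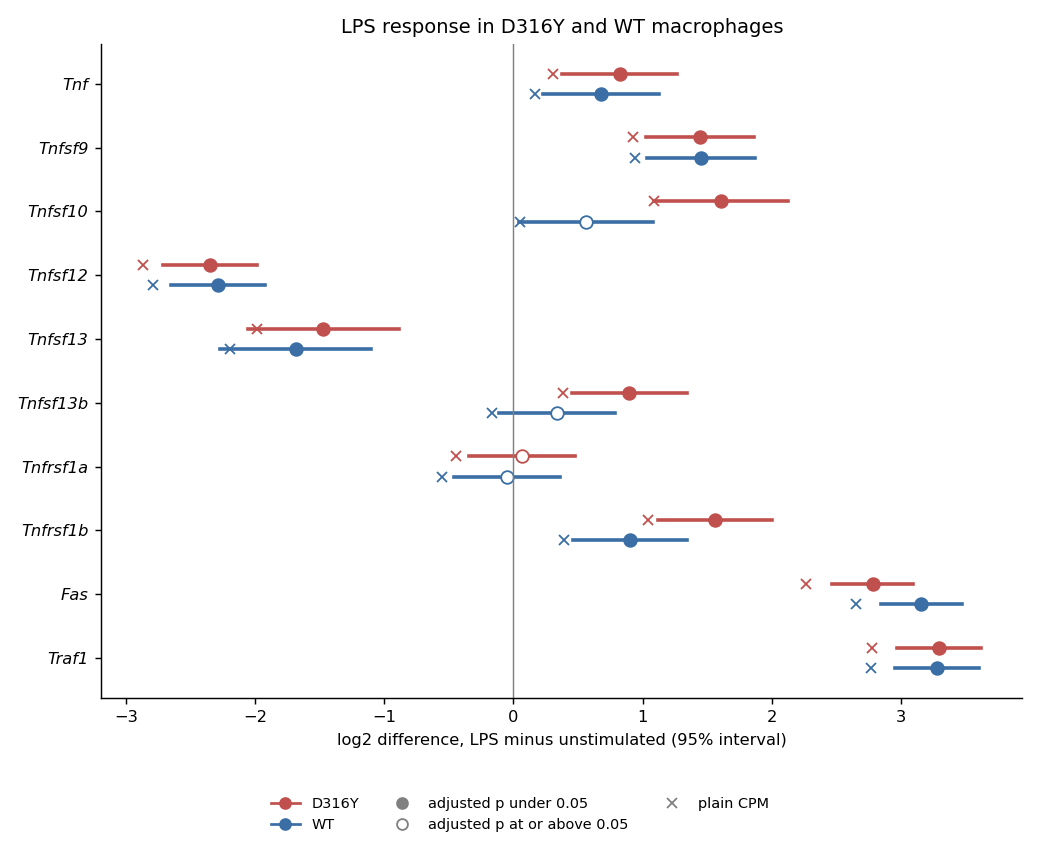
Log2 difference of LPS minus unstimulated libraries with its 95% interval for each gene, D316Y in red above WT in blue; filled circles passed an adjusted p of 0.05, and crosses give the same difference on plain CPM. Traf1 and Fas are the highest and Tnfsf12 the lowest in both genotypes, and every cross lies to the left of its circle.

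Between genotypes without LPS, none of the 10 genes passed (limma); 1 of the 11525 genes tested did (0.00868%), and 337 had an unadjusted p under 0.05. Of the 10 genes 1 had an unadjusted p under 0.05. With the replicate number as a block 3 of the 10 did, Tnfrsf1b (0.00502), Tnfsf10 (0.00876) and Tnfrsf1a (0.0153), among 2119 of all genes tested, and none of the 10 passed. Without the block it was Tnfsf10, with 178, 171 and 246 reads in unstimulated D316Y, against 534, 307 and 229 in unstimulated WT. All 3 D316Y libraries were below all 3 WT libraries in log2 CPM, with D316Y replicate 3 close to WT replicate 3. The log2 difference was -0.90 (SE 0.27, unadjusted p 0.0104, adjusted p 0.942), and the authors' deposited table gives -0.63 with an adjusted p of 0.265. By replicate number, D316Y was lower by 1.49, 1.06 and 0.14 on the log2 scale in replicates 1, 2 and 3. Same-numbered unstimulated libraries deviated together, and with the replicate number as a block the adjusted p was 0.153, the lowest of all alternatives. Without both replicate 1 libraries, whose mitochondrial shares were 0.949% in D316Y and 0.449% in WT, the difference was -0.60 (adjusted p 0.325); the part of that share in the difference was not tested.

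Tnfrsf1b and Tnfsf13b were also lower in every unstimulated D316Y library than in every WT library, and Fas was higher in every one. Over all genes tested, 2.95% lay higher without overlap and 5.18% lower. Tnfrsf1b had 16289, 15435 and 14519 reads in D316Y, against 28693, 17683 and 13873 in WT, and its log2 difference was -0.44 (SE 0.21, limma adjusted p 0.942, 0.140 with the replicate block). Without both replicate 1 libraries it was -0.30 (adjusted p 0.227). Tnfsf13b had 77, 91 and 77 reads in D316Y, against 136, 105 and 86 in WT, and a log2 difference of -0.52 (SE 0.23, adjusted p 0.942, 0.272 with the block). Fas differed by 0.27 (SE 0.18, adjusted p 0.942), with D316Y replicate 2 only 0.01 log2 units above WT replicate 2. The other 6 genes overlapped, with log2 differences from -0.27 for Tnfrsf1a to 0.22 for Tnfsf12. Tnfrsf1a was lower in D316Y in each of the 3 same-numbered pairs, by 0.39, 0.22 and 0.21 on the log2 scale (limma adjusted p 0.942, 0.180 with the block). The 95% interval of the Tnf difference was -0.46 to 0.43.

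With LPS the genotypes overlapped in all 10 genes, where 5.7% of the 11306 genes tested lay higher without overlap and 6.79% lower. None of the 10 passed (limma), against 5 genes in all (0.0442%, with 735 at an unadjusted p under 0.05), and none had an unadjusted p under 0.05. The log2 differences ran from -0.16 for Tnfrsf1a (95% interval -0.45 to 0.14) to 0.28 for Tnfsf13 (-0.37 to 0.93). Tnf, with 731, 772 and 502 reads in D316Y and 571, 836 and 685 in WT, differed by 0.13 (SE 0.19, adjusted p 0.940, 95% interval -0.29 to 0.55). Traf1 was higher in D316Y in each of the 3 same-numbered pairs, by 0.14, 0.22 and 0.28, and differed by 0.22 (SE 0.12, adjusted p 0.817). For Traf1 the authors' deposited table gives 0.28 with an adjusted p of 0.242.

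**Figure D4:**
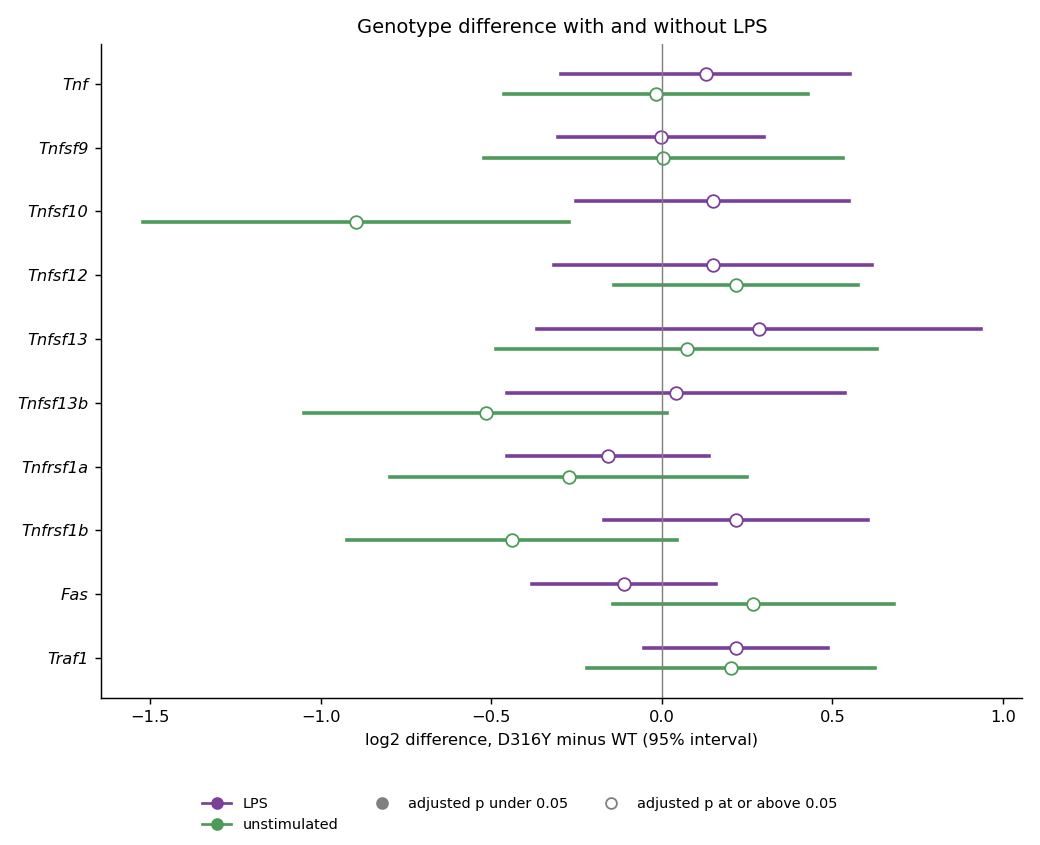
Log2 difference of D316Y minus WT with its 95% interval for each gene, with LPS in purple above unstimulated in green; open circles did not pass an adjusted p of 0.05. All circles are open, and Tnfsf10 without LPS has the 1 interval that does not reach 0.

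The LPS response in D316Y was then set against that in WT as an interaction in 1 fit of the 12 libraries. None of the 11918 genes passed (limma, 0.0%), and 251 had an unadjusted p under 0.05. Tnfsf10 had the largest value of the 10 genes, a D316Y response 1.05 above the WT response on the log2 scale (SE 0.34, unadjusted p 0.00859, adjusted p 0.999). Tnfrsf1b followed at 0.66 (SE 0.29, unadjusted p 0.0406, adjusted p 0.999), and Tnfsf13b at 0.56 (SE 0.29, unadjusted p 0.0793). Fas was at -0.38 (SE 0.21, unadjusted p 0.0903). These comparisons share the unstimulated libraries with the genotype difference at rest, so the values of a gene in both are not independent. Without both unstimulated replicate 1 libraries Tnfsf10 was at 0.75 and Tnfrsf1b at 0.52. Tnfsf10 and Tnfsf13b passed with LPS in D316Y and not in WT, but the interaction did not show their responses to differ.

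Around these genes, 5 lists of the pathway held 87 genes, of which 67 were measured. Of the 62 tested, 30 rose and 12 fell with LPS in D316Y, and 24 rose and 12 fell in WT. Over all 11918 genes tested, 19.2% were called higher and 18.9% lower in D316Y, and 17.8% and 18.7% in WT. The falls in the lists were near those shares, which also apply to each list below. The median log2 difference of the lists was 0.38 in D316Y and 0.20 in WT, against -0.03 and -0.01 over all genes. On plain CPM the counts of the lists were 20 higher and 23 lower in D316Y and 14 higher and 25 lower in WT, of 63 tested. Of all 12092 genes tested on that scale, 1058 were called higher and 5971 lower in D316Y, and 926 and 5998 in WT. Most calls over all genes were thus lower there too. The balance turned in both genotypes for receptor signalling and feedback, with 6 higher and 10 lower in D316Y and 3 and 10 in WT, of 24 tested. It also turned for ligands in D316Y and for TRAF adaptors in WT. For ligands it was 3 higher and 4 lower in D316Y and 2 and 3 in WT, for receptors 7 and 4 in D316Y and 6 and 5 in WT, for TRAF adaptors 2 and 1 in D316Y and 2 and 3 in WT, and for ligand processing and mRNA control 2 and 4 in D316Y and 1 and 4 in WT. In neither genotype comparison, nor in the interaction, did any gene of the lists pass. Of 9 ligands tested, 5 rose and 3 fell in D316Y, and 3 rose and 3 fell in WT. Besides those described above, Tnfsf15, or TL1A, rose by 2.26 in D316Y (SE 0.27, limma adjusted p 2.09e-05) and 1.67 in WT (SE 0.27, adjusted p 0.000294). With LPS, Tnfsf15 was at 0.67 in D316Y minus WT (SE 0.18, limma unadjusted p 0.00279), and it did not pass (adjusted p 0.432). Tnfsf8, the CD30 ligand, was called lower at -1.71 in D316Y (SE 0.60, limma adjusted p 0.0370) and -2.28 in WT (SE 0.60, adjusted p 0.00895). Its mean reached the 0 log2 CPM required of tested genes only in unstimulated D316Y, at 0.12, against -0.03 in unstimulated WT. With LPS it was at -1.59 log2 CPM in D316Y and -2.31 log2 CPM in WT. A fall was therefore the direction that this limit favoured, and the call is no support for a response. It is among the ligands counted as fallen.

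Of 16 receptors tested, 9 rose and 4 fell in D316Y, and 10 rose and 3 fell in WT. The 16 include Tnfrsf9, whose mean reached 0 log2 CPM only in LPS-treated D316Y, at 0.17, so that the limit favoured a rise. Relt, a receptor of lymphoid tissues, rose by 2.25 in D316Y (SE 0.21, limma adjusted p 2.01e-06) and 1.77 in WT (SE 0.21, 2.04e-05). Cd40, through which T cells activate macrophages, rose by 1.94 in D316Y (SE 0.20, adjusted p 4.78e-06) and 1.34 in WT (SE 0.20, 0.000131). Tnfrsf11a, or RANK, the receptor that drives osteoclast formation, fell by 1.37 in D316Y (SE 0.14, adjusted p 5.95e-06) and 1.07 in WT (SE 0.14, 5.76e-05). Tnfrsf14, the receptor of LIGHT, rose by 1.12 in D316Y (SE 0.17, adjusted p 0.000183) and 1.21 in WT (SE 0.17, 0.000113). Without LPS, Cd40 and Relt had the smallest unadjusted p-values among receptors between genotypes, at -0.55 (p 0.0117) and -0.67 (p 0.0153), and neither passed (adjusted p 0.942).

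Of 6 TRAF adaptors tested, 3 rose in D316Y and 2 rose and 1 fell in WT. Traf2, the partner of Traf1, rose by 1.24 in D316Y (SE 0.17, limma adjusted p 7.17e-05) and 1.06 in WT (SE 0.17, 0.000311). Traf3, which restrains alternative NF-kappaB signalling, rose by 0.61 in D316Y (SE 0.15, adjusted p 0.00516) and was at 0.33 in WT (0.101), which did not pass. Traf5 was at -0.18 in D316Y (adjusted p 0.331), which did not pass, and fell by 0.41 in WT (SE 0.13, 0.0284). On plain CPM Traf3 passed in neither genotype (0.10 in D316Y, limma adjusted p 0.591, and -0.18 in WT, 0.326). Traf5 passed there as lower in both, at -0.69 in D316Y (adjusted p 0.000685) and -0.92 in WT (8.43e-05). Of 23 genes of receptor signalling and feedback, 10 rose and 2 fell in D316Y, and 7 rose and 1 fell in WT, a balance that turned on plain CPM as given above. The apoptosis inhibitor Cflar rose by 1.52 in D316Y (SE 0.11, limma adjusted p 1.90e-07) and 1.44 in WT (SE 0.11, 3.25e-07), and Birc3, another, by 1.59 in D316Y (SE 0.13, 7.73e-07) and 1.42 in WT (SE 0.13, 2.59e-06). Tnip1, a partner of the NF-kappaB inhibitor A20, rose by 1.53 in D316Y (SE 0.18, adjusted p 1.41e-05) and 1.49 in WT (SE 0.18, 2.05e-05).

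Of 8 genes of ligand processing and mRNA control tested, 3 rose and 3 fell in D316Y, and 2 rose and 4 fell in WT. Rhbdf2, which brings the TNF-cleaving protease to the cell surface, rose by 1.25 in D316Y (SE 0.16, limma adjusted p 3.31e-05) and 1.01 in WT (SE 0.16, 0.000217). Sppl2a, an intramembrane protease, rose by 0.88 in D316Y (SE 0.15, adjusted p 0.000368) and 0.68 in WT (SE 0.15, 0.00272); on plain CPM it did not pass in WT (0.17, adjusted p 0.288). Zfp36l1, a relative of the Tnf mRNA decay factor tristetraprolin, fell by 1.16 in D316Y (SE 0.15, adjusted p 4.67e-05) and 1.49 in WT (SE 0.15, 5.94e-06). Zfp36, which encodes tristetraprolin itself, fell by 0.83 in D316Y (SE 0.15, adjusted p 0.000653) and 1.08 in WT (SE 0.15, 8.94e-05).

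**Figure D5:**
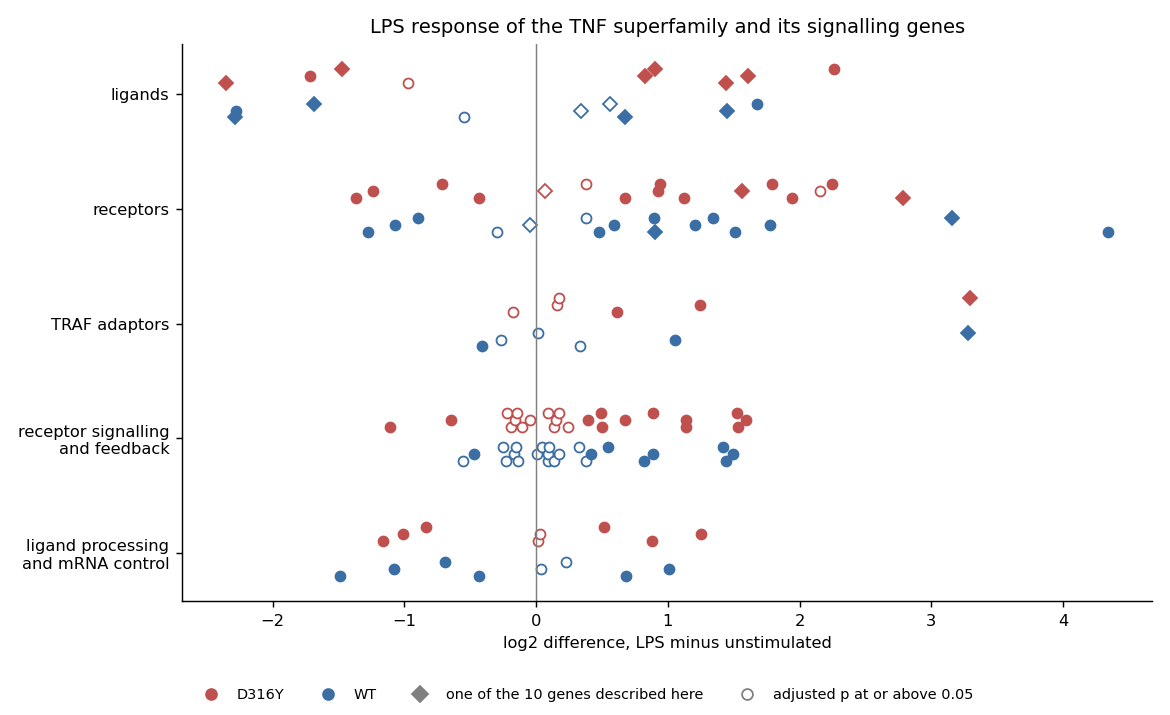
Log2 difference of LPS minus unstimulated for each tested gene of the 5 lists, D316Y in red above WT in blue; diamonds are the 10 genes described here and open symbols did not pass an adjusted p of 0.05. Ligands, receptors and adaptors spread to both sides of 0, with Traf1 the highest adaptor in both genotypes.

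The likeness of patterns over the 12 libraries was measured as the root mean square difference of log2 values after each gene was centred on its mean, among 9863 other genes, as a description only. Nearest to Fas were Bnip3 (0.19), Ier3 (0.23) and Jak2 (0.23). Nearest to Traf1 were Pilra (0.17), Slc6a12 (0.20) and Osbpl3 (0.21). Among the 10 genes themselves Fas and Traf1 were each other's nearest, at 0.31. Tnfsf10 had Rnf135 (0.17), Irgm1 (0.17) and Parp10 (0.18), and Tnfrsf1b had Tmem67 (0.13), Ddx58 (0.13) and Sbno2 (0.14). Tnfsf10 and Tnfrsf1b were each other's nearest among the 10, also at 0.31. Tnfsf13b had Ccdc126 (0.15), Eif4ebp1 (0.15) and the lymphotoxin beta receptor gene Ltbr (0.16). For Tnf they were Mrpl22 (0.13), Fcf1 (0.14) and Snrnp27 (0.15), and for Tnfsf9 Tal2 (0.17), Pgam1 (0.18) and Mrpl45 (0.18). For Tnfsf12 they were Anxa1 (0.13), Cdca3 (0.17) and Dnmt3a (0.17), and for Tnfsf13 Dot1l (0.18), Bsn (0.22) and Dusp22 (0.23). Tnfrsf1a, whose level varied least, had Mavs (0.06), Ints9 (0.06) and Snx4 (0.07).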

How the data were processed

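RNA was sequenced from 12 libraries in 4 groups of 3. The authors deposited 2 tables with the same log2 CPM values of all libraries, and each also holds the authors' log2 fold changes, p-values and adjusted p-values of 1 genotype comparison, per the file headers. STAR 2.5.1a, featureCounts 1.4.6-p5, edgeR and limma are named in the submitters' processing notes, without their role; the genome build, annotation and strand setting were not given in the sources used. After 52 repeated identifiers were taken once, 12441 genes remained, all found in GENCODE M21.

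Multiplying out an effective library size per column and taking off an offset of 0.5 reads turned 100% of the values below 200 reads into whole reads, to within 0.01. Reads per kb used M21 exon length and were divided by that effective size. It was 55.3 M for unstimulated D316Y replicate 2, which had 42.0 M reads. For D316Y replicate 1 with LPS it was 36.4 M, against 41.1 M reads. Differences were tested on the log2 values with limma 3.58.1 in R 4.3.3 (eBayes with trend and robust), two-sided, with Benjamini-Hochberg adjustment over all genes whose mean reached 0 log2 CPM in a compared group and a threshold of 0.05. Genotypes were compared within each condition (6 libraries), LPS and the interaction in 1 fit of 12. The fits were tested on simulated data.

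The 10 genes, the lists and the tests were chosen with earlier results of these data known. All 10 genes are named; of each list up to 3 that passed per comparison by smallest adjusted p, or 2 by smallest unadjusted p, could be named, and a selection is printed. Replicate numbers paired the unstimulated genotypes (correlations of deviations from group means 0.656, 0.630 and 0.200), but not the LPS genotypes (-0.140, 0.0859 and -0.0136), so the blocked value stands beside the unstimulated comparison. Between LPS and unstimulated libraries the correlations were 0.422, 0.231 and -0.0922 in WT and -0.189, -0.248 and -0.102 in D316Y. For LPS the blocked value is printed only for Tnf in WT. Alternatives were plain CPM (added after the data were seen), quantile normalization, voom weights, another offset or filter, a fit without trend, other sample sets, the block and leaving out each library.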

Additional observations from a re-analysis of the deposited data

How the results depend on the processing

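Of the 10 genes, Traf1, Fas, Tnfsf9, Tnfsf12 and Tnfsf13 passed in the same direction in both LPS comparisons under every alternative tried. Values below are log2 differences unless called counts, and the cause of each move was not tested. In the unstimulated genotype comparison 4 genes passed in 1 fit of all 4 groups, 10 without both replicate 1 libraries, 6 with the replicate block, and 0 with no filter on low values, with no trend or with quantile normalization; leaving out each library gave 0 to 1. In the LPS genotype comparison 1 gene passed with no trend and 3 on plain CPM, and leaving out each library gave 2 to 22, the 22 without WT replicate 2. On plain CPM LPS called 7029 genes in D316Y and 6924 in WT, against 4543 and 4347. The block changed no call of the 10 genes in any comparison. Of 52 sign changes of the 10 genes, 0 passed on the changed side, and none concerned a difference that had passed. On plain CPM the genotype difference was 0.037 for Tnfsf9 with LPS and 0.029 for Tnf without it, and the LPS difference was -0.45 for Tnfrsf1a in D316Y and -0.17 for Tnfsf13b in WT. Quantile normalization gave 0.00327 for Tnfsf9 between genotypes with LPS, -0.021 without it and 0.024 in the interaction, and -0.25 for Tnfrsf1a with LPS in D316Y. Without both unstimulated replicate 1 libraries Tnfsf9 was at -0.29 between unstimulated genotypes, Tnfrsf1a at 0.15 for LPS in WT, and the interaction at 0.071 for Tnfsf12 and 0.28 for Tnfsf9.

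Leaving out each library in turn gave these ranges. Between genotypes with LPS they were -0.048 to 0.32 for Tnf, -0.014 to 0.35 for Tnfrsf1b, -0.0094 to 0.30 for Tnfsf10, -0.041 to 0.18 for Tnfsf13b and -0.078 to 0.10 for Tnfsf9. Between unstimulated genotypes they were -0.17 to 0.14 for Tnf, -0.14 to 0.22 for Tnfsf13 and -0.21 to 0.16 for Tnfsf9. For LPS, Tnfrsf1a ran from -0.039 to 0.21 in D316Y and from -0.18 to 0.15 in WT. In the interaction they were -0.031 to 0.33 for Tnf, -0.082 to 0.25 for Tnfrsf1a, -0.18 to 0.052 for Tnfsf12, -0.027 to 0.42 for Tnfsf13, -0.17 to 0.21 for Tnfsf9 and -0.10 to 0.15 for Traf1. With 3 libraries a group and as few as 52 reads of Tnfsf13 and 77 of Tnfsf13b in a library, small differences in these genes were not detectable.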
